A study of Danio rerio with 12 samples.

Results

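The cadherins and protocadherins measured here were 27 of the 10915 named genes on a zebrafish expression array. They are the genes whose symbol begins with pcdh, or with cdh followed by a digit, with cdh5 left out. Each gene was read from 1 probe, the one with the highest mean signal over the 12 arrays, and 12 of the 27 genes had more than 1 probe. The 27 genes comprised 7 classical cadherins, 2 other cadherins, 8 clustered protocadherins and 10 other protocadherins. Neither the rule nor the choice of probe used a difference between treatments or times.

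Cadherins are calcium-dependent adhesion proteins that span the cell membrane. Classical cadherins bind the same kind of cadherin on the neighbouring cell and are tied to actin through the catenins, and the kind a cell carries helps embryonic tissues to hold together and to separate. Protocadherins share the outer cadherin repeats but lack the catenin-binding tail. The clustered protocadherins are encoded by rows of variable exons and are known mainly from neurons, in which the combination expressed gives a cell its identity. The remaining protocadherins lie outside those clusters, and among them are genes for cell movement, somite formation and the tip links of hair cells.

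Embryos were injected at the 1-cell stage with 4.4 ng in 1 nL of a morpholino against translation of the glucocorticoid receptor (MO), or with the same amount of a mispair control (MP), and all groups therefore carried an injected oligonucleotide. Pools of 25 whole embryos were frozen at 24 or 36 hours post fertilization (hpf), giving 3 pools of MO at 24 hpf, 3 of MP at 24 hpf, 3 of MO at 36 hpf and 3 of MP at 36 hpf, each on its own 1-colour array. The design text calls the 3 pools of a group independent breedings. The morpholino is shown because it defines the MO groups, and the capitals mark the letters that read ATG on the opposite strand. Its sequence was
MO: ctccagtcctccttgatcCATtttg
The labels print the same letters for the mispair control, whose sequence is therefore not given here. A block of translation leaves the receptor transcript in place, so its array signal checks no label. In pools of whole embryos, fewer cells of a type and less transcript per cell cannot be told apart.

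Arrays of 24 hpf were more uniform than those of 36 hpf. The median probe intensity was 129 to 141 on MO and 132 to 171 on MP arrays at 24 hpf, and 35.5 to 105 on MO and 83.9 to 171 on MP arrays at 36 hpf. Between 25 and 26 members were well above background on each array of 24 hpf, against 20 to 23 on MO and 23 to 24 on MP arrays of 36 hpf. MO replicate 2 of 36 hpf was the dimmest array and correlated least with its group (median r = 0.966, against 0.973 and 0.976 for the other MO arrays of that time, across probes). Each of the 6 slides held 1 MO and 1 MP array of 1 time point, so time and slide cannot be told apart. All levels below are log2 intensities after division by an array's median over 19114 bright probes, so that 0 is that median. A level is set against the same gene in another group, never against another gene, because probes differ in brightness.

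At 24 hpf, 17 of the 25 members that could be tested had changed in MO embryos (adjusted p under 0.05), 9 higher and 8 lower. That is 68% of the members tested, against 48.3% of all 10353 genes tested (24.3% higher and 24% lower). By class, of the 7 clustered protocadherins tested 5 were lower and none was higher, of the 10 other protocadherins 6 were higher and 1 was lower, of the 6 classical cadherins 3 were higher and 2 were lower, and neither of the 2 other cadherins changed. Changes are MO minus MP by the labels, which is opposite to the direction of the fold changes the study prints. The study's qPCR on other pools of 36 hpf went in its printed direction for all genes it measured. Among them was myom1a, printed as higher in MO and at -1.53 at 36 hpf by the labels. Which direction is right was not tested, so every direction given for MO is that of the labels. The same 17 members were those whose MO and MP arrays did not overlap, 9 higher and 8 lower, a separation seen in 59.8% of all genes tested (29.7% higher and 30% lower). Because of that separation, their 17 differences necessarily had the same direction on each of the 3 slides and in both scan sessions of 24 hpf. cdh18a, a type II cadherin, stayed near background on all 12 arrays, and pcdh2g12, a clustered protocadherin, reached it on only 2 arrays in each group of 24 hpf, so neither was tested.

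**Figure D1:**
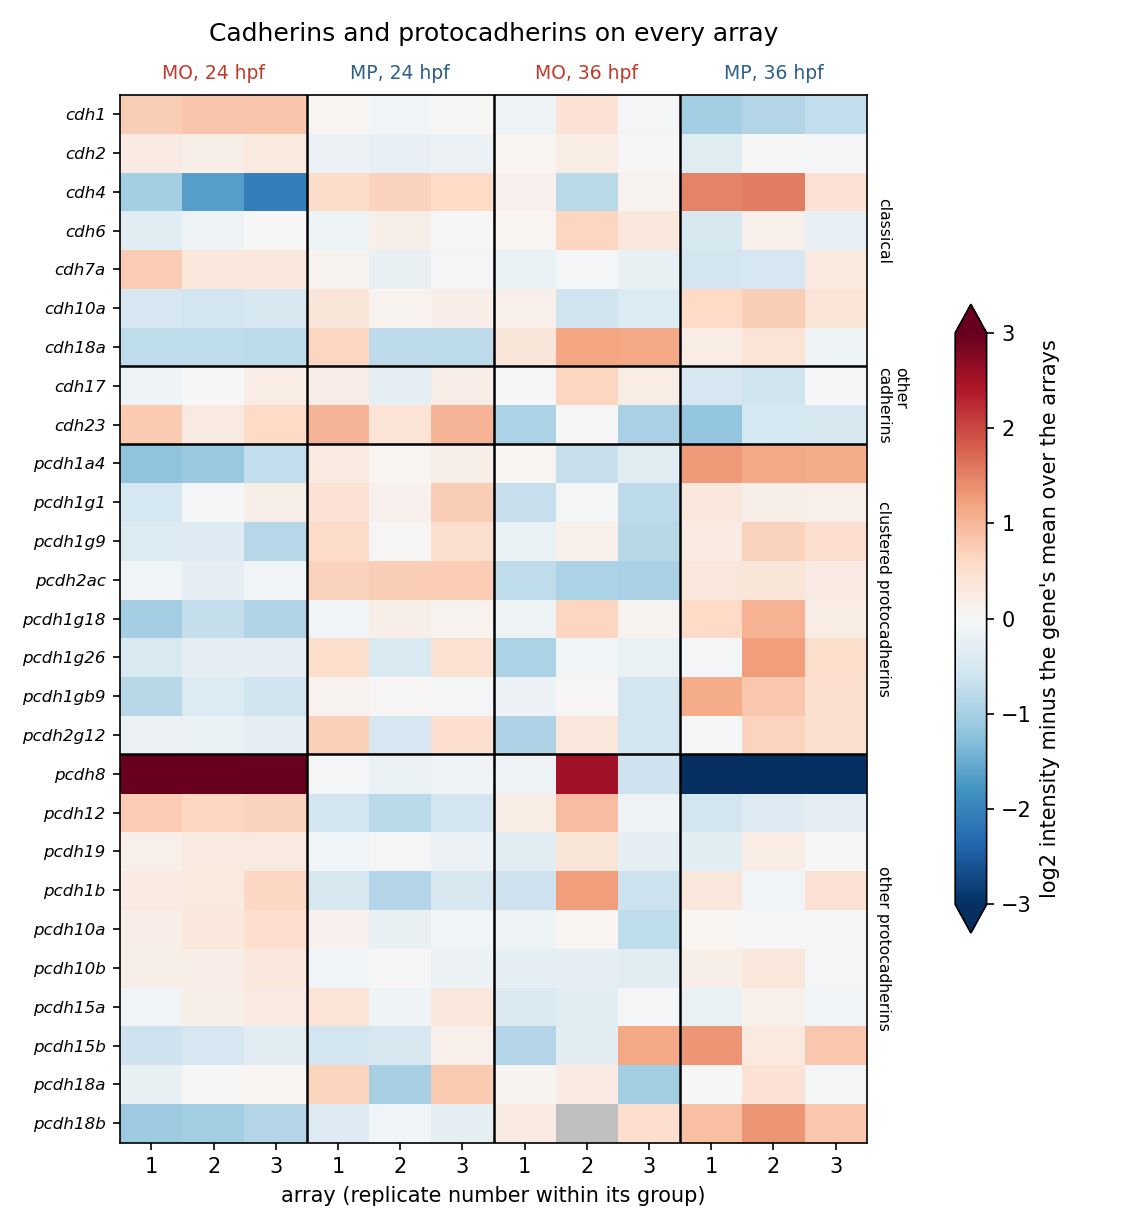
Heat map of the 27 members (rows, by class) on the 12 arrays (columns, by treatment and time), coloured by log2 intensity minus the gene's mean over the arrays, with a spot marked as an outlier in grey and colours ending at 3 in either direction. Blue is low and red is high. Most clustered protocadherins are bluer in MO than in MP columns of the same time, and pcdh8 passes both ends of the colour scale.

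The largest change belonged to pcdh8, called paraxial protocadherin in zebrafish and known for cell movement in the paraxial mesoderm that forms the somites. Its level was -1.94, -2.14 and -2.20 in the MO pools of 24 hpf, against -5.30, -5.48 and -5.37 in the MP pools. The groups lay far apart, with MO higher by 3.29 ± 0.15 on the log2 scale (SE, adjusted p = 1.49e-06), a 9.79-fold difference. With a background correction that adds an offset the change was 2.09. The 11 paraxial mesoderm markers measured beside it were all higher in MO embryos, with a median log2 change of 3.11 and a summed scaled intensity of 29.2 to 32.5 in MO against 5.12 to 7.09 in MP pools. What part of the pcdh8 change goes with the amount of that tissue was not tested.

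The other raised protocadherins outside the clusters changed less. pcdh12, a protocadherin of endothelium in mammals, was at -0.51, -0.63 and -0.59 in MO pools and at -1.85, -2.09 and -1.86 in MP pools of 24 hpf. That is a rise of 1.36 ± 0.11 (SE, adjusted p = 3.40e-05). Endothelial markers moved with it, since 4 of the 6 tested were higher and none lower (median 0.62, summed intensity 12.5 to 14.8 in MO against 6.09 to 6.49 in MP pools), while cdh5, the cadherin that defines endothelium, was at -0.08 ± 0.24 (SE, adjusted p = 0.790). The part of that tissue in the pcdh12 change was not tested.

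pcdh1b, of the delta-1 protocadherins, was at -3.22, -3.18 and -2.84 in MO pools and at -3.95, -4.35 and -3.95 in MP pools. It rose by 1.01 ± 0.18 (SE, adjusted p = 0.00183), although the call was lost in a single fit of all 12 arrays (adjusted p = 0.108). pcdh19, a delta-2 protocadherin that works with cdh2 in the zebrafish neural plate, was at 3.02, 3.14 and 3.14 in MO pools and at 2.79, 2.83 and 2.69 in MP pools, a rise of 0.33 ± 0.08 (SE, adjusted p = 0.0102). This small rise was lost when arrays were scaled to positive control spots (0.24, adjusted p = 0.17) and in the fit of all 12 arrays (adjusted p = 0.244). The paralogues pcdh10a and pcdh10b, also delta-2, rose by 0.40 ± 0.13 (SE, adjusted p = 0.0323) and 0.31 ± 0.09 (SE, adjusted p = 0.0246). Both calls were weak. The call of pcdh10a was lost without MO replicate 2 or 3 (adjusted p = 0.0718 and 0.105) or MP replicate 2 or 3 (0.0683 and 0.0892), and that of pcdh10b without MO replicate 3 (0.0840) or MP replicate 1 or 3 (0.0684 and 0.0940).

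Only 1 protocadherin outside the clusters fell. pcdh18b, a further delta-2 gene, was at 0.70, 0.74 and 0.90 in MO pools and at 1.40, 1.71 and 1.5 in MP pools of 24 hpf. The groups did not overlap and the fall was -0.75 ± 0.11 (SE, adjusted p = 6.03e-04). Its paralogue pcdh18a had a change of -0.19 ± 0.42 (SE, adjusted p = 0.728), with MP replicate 2 at -5.36 against -3.70 and -3.57 in the other MP pools. Without that pool, picked after its values were seen, the change of pcdh18a was -0.77 (adjusted p = 0.00632). Over all 6 fits that left out an array it ranged from -0.77 to 0.13, with an adjusted p of up to 0.921.

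**Figure D2:**
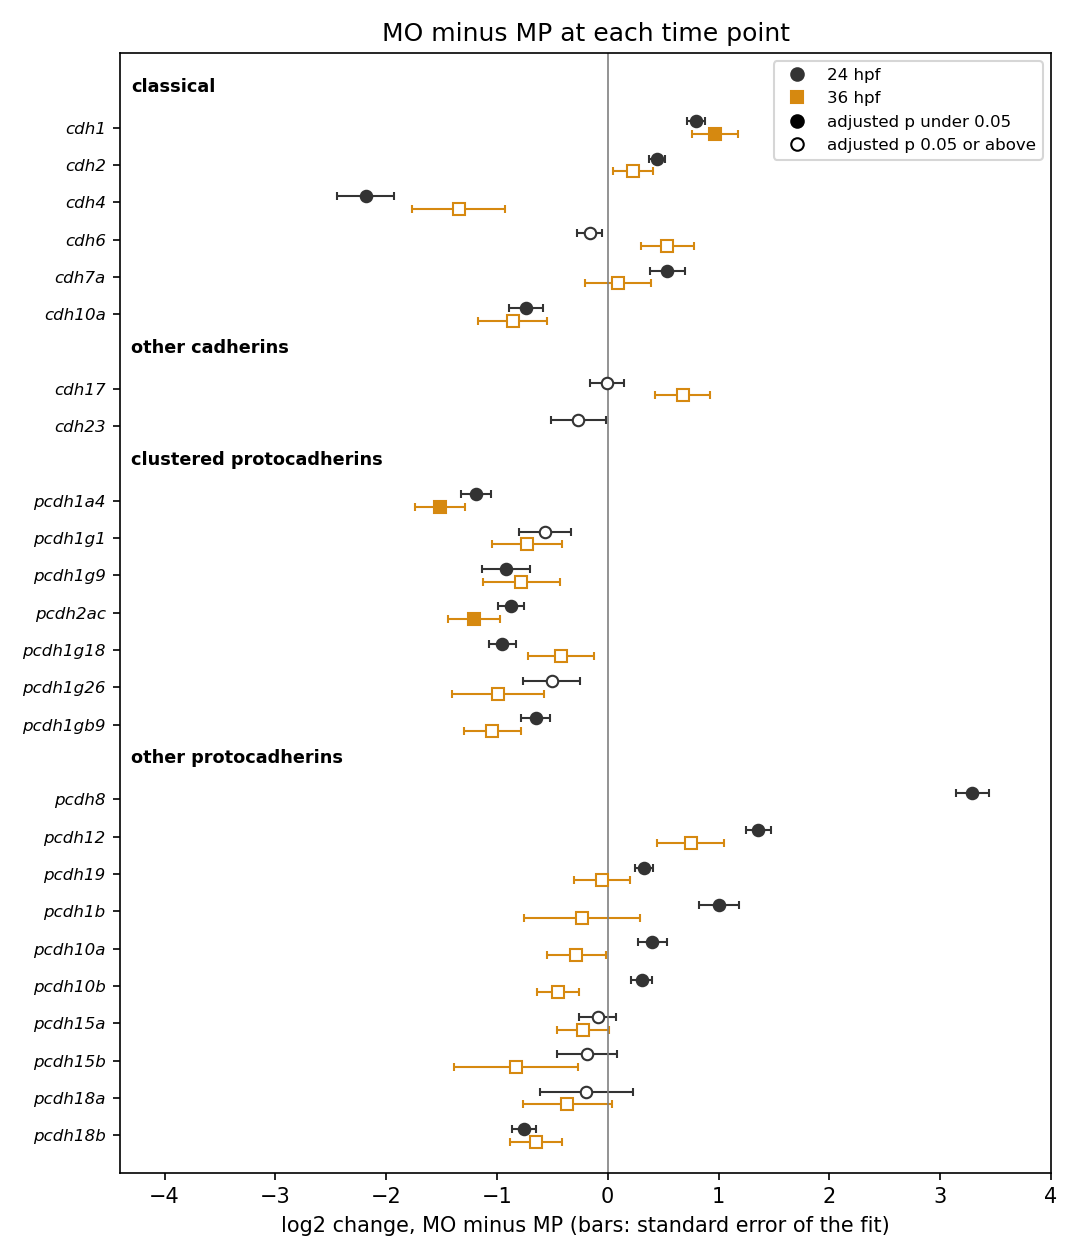
Log2 change of each tested member in MO relative to MP embryos (x axis, log2; bars, SE) at 24 hpf (circles) and 36 hpf (squares), filled where the adjusted p was under 0.05. The 7 clustered protocadherins lie left of 0 at both times, while pcdh8, pcdh12 and pcdh1b stand to the right at 24 hpf. At 36 hpf pcdh1g1 and pcdh1g9 were tested only because MP, the higher group, was well above background.

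Among the clustered protocadherins all 7 tested had a negative change at 24 hpf, with a median of -0.87 and a range of -1.18 to -0.51, beside a median of 0.01 over all genes. Within the 3 slides their median was -0.81, -0.84 and -0.79, with 6 of 7 negative on the slide of MO replicate 1 and 7 of 7 on the others. The largest fall was that of pcdh1a4, an alpha isoform of the first cluster. It was at -0.51, -0.41 and -0.03 in MO pools, against 0.96, 0.76 and 0.89 in MP pools, which do not overlap. The change of -1.18 ± 0.14 (SE, adjusted p = 1.69e-04) depended on the probe, as the other probes of the gene gave -0.35 and -1.26. With the median of its probe levels on each array the change was -0.35 (adjusted p = 0.0403). That setting follows the probe of middle brightness and is not a summary of the probes' changes.

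Of the 5 gamma members of the first cluster that were tested, 3 fell. pcdh1g18 was at -1.84, -1.54 and -1.72 in MO pools and at -0.89, -0.64 and -0.72 in MP pools, a change of -0.95 ± 0.12 (SE, adjusted p = 3.43e-04). pcdh1g9 was at -4.97, -4.93 and -5.41 in MO pools and at -3.97, -4.52 and -4.08 in MP pools. Its change of -0.92 ± 0.22 (SE, adjusted p = 0.00804) was the least secure of the 5, since a floor set after scaling left -0.20 (adjusted p = 0.164). All its MO values lay below that floor, which therefore limited the size of the change. pcdh1gb9 was at -1.46, -1.02 and -1.23 in MO pools and at -0.51, -0.60 and -0.66 in MP pools, a change of -0.65 ± 0.13 (SE, adjusted p = 0.00335).

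The second cluster was represented by pcdh2ac, an alpha member by its name. It was at -2.52, -2.71 and -2.53 in MO pools and at -1.75, -1.71 and -1.69 in MP pools, and fell by -0.87 ± 0.12 (SE, adjusted p = 3.76e-04). The members without a call were pcdh1g1 at -0.56 ± 0.24 (SE, adjusted p = 0.0764) and pcdh1g26 at -0.51 ± 0.26 (SE, adjusted p = 0.136), both of which overlapped between treatments. For both, MP replicate 2 was the lowest MP pool, and without it pcdh1g1 was at -0.72 (adjusted p = 0.0369) and pcdh1g26 at -0.82 (adjusted p = 0.00293). pcdh1g1 also passed without MO replicate 3 (-0.72, adjusted p = 0.0446). Leaving out the lowest MP pool, picked after its values were seen, necessarily enlarges a fall, so these 2 calls add no support. Over all 6 fits that left out an array the adjusted p reached 0.239 for pcdh1g1 and 0.372 for pcdh1g26. Without MP replicate 2, 5072 of 10390 genes passed.

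These genes are neighbours. In the RefSeq annotation of GRCz12tu, the stretch spanned by the 6 measured members of the first cluster holds 11 coding genes, all of them protocadherins, and the stretch spanned by the 2 measured members of the second cluster holds 28, of which 25 are protocadherins. Variable exons of a cluster resemble each other, and how far 1 probe also binds the transcripts of its neighbours was not tested, so the 7 probes may not be 7 independent readings. Neuronal markers moved with the class. All 10 measured were lower in MO pools of 24 hpf, with a median log2 change of -0.98 and a summed intensity of 13.4 to 15.4 in MO against 29.9 to 30.6 in MP pools. The part of neuronal content in the fall of the clustered protocadherins was not tested.

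Classical cadherins split by gene at 24 hpf. cdh1, the E-cadherin of epithelia, was at 3.25, 3.34 and 3.35 in MO pools, against 2.57, 2.43 and 2.55 in MP pools. The rise of 0.79 ± 0.08 (SE, adjusted p = 9.21e-05) kept its call in each of the 6 fits that left out 1 array. cdh2, the N-cadherin of neural tube and mesoderm, was at 4.92, 4.85 and 4.97 in MO pools and at 4.49, 4.42 and 4.50 in MP pools, a rise of 0.45 ± 0.07 (SE, adjusted p = 0.00130), and its other probes gave 0.45 and 1.04. Scaled to positive control spots, the change of cdh2 was 0.36 (adjusted p = 0.0604). cdh7a, a type II cadherin, rose by 0.54 ± 0.16 (SE, adjusted p = 0.0217), a call lost without MO replicate 1 (adjusted p = 0.0670), MP replicate 2 (0.0512) or MP replicate 3 (0.0586).

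Both classical cadherins that fell are known from the nervous system, as is cdh2, which rose. cdh4, the R-cadherin first described in retina, was at -5.46, -6.11 and -6.49 in MO pools and at -3.90, -3.76 and -3.84 in MP pools. Every MO pool lay far below every MP pool, and the change was -2.19 ± 0.26 (SE, adjusted p = 2.11e-04), a 4.55-fold difference. Since its level is low, the size depended on how dim values were handled: it was -0.86 with the offset background correction and -0.49 with a floor set after scaling. cdh10a, a type II cadherin, was at -4.64, -4.70 and -4.61 in MO pools and at -3.77, -4.03 and -3.93 in MP pools, a change of -0.74 ± 0.15 (SE, adjusted p = 0.00418), or -0.38 with the offset correction and -0.41 with the later floor. All MO values of cdh4 and cdh10a at 24 hpf lay below that floor. cdh6, a type II cadherin of kidney and neural crest, had a change of -0.16 ± 0.11 (SE, adjusted p = 0.265) and its second probe 0.18.

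Markers of the tissues these cadherins come from moved unevenly. Of the 7 epidermal markers tested at 24 hpf 3 were higher and 1 was lower in MO pools (median 0.27, summed intensity 785 to 883 in MO against 640 to 763 in MP pools), beside the rise of cdh1. All 9 lens markers were measured and 8 were lower (median -3.20), and of 10 skeletal muscle markers 9 were lower and 1 was higher (median -1.47). Their part in the cadherin changes was not tested.

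No change at 24 hpf passed the test in the cadherins of transport epithelia and hair cells, or in pcdh15b. cdh17, which marks the zebrafish pronephros, had a change of -0.01 ± 0.15 (SE, adjusted p = 0.982). The tip-link genes cdh23 and pcdh15a had changes of -0.26 ± 0.25 (SE, adjusted p = 0.402) and -0.09 ± 0.16 (SE, adjusted p = 0.674). pcdh15b, the paralogue of pcdh15a, had a change of -0.19 ± 0.27 (SE, adjusted p = 0.591). All 4 overlapped between treatments. Hair cells are few in a whole embryo, and of the 4 hair cell markers on the array only myo7aa was tested (-0.57 ± 0.15, SE, adjusted p = 0.0118). The others, otofa, pou4f3 and lhfpl5b, stayed near background on all 12 arrays.

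**Figure D3:**
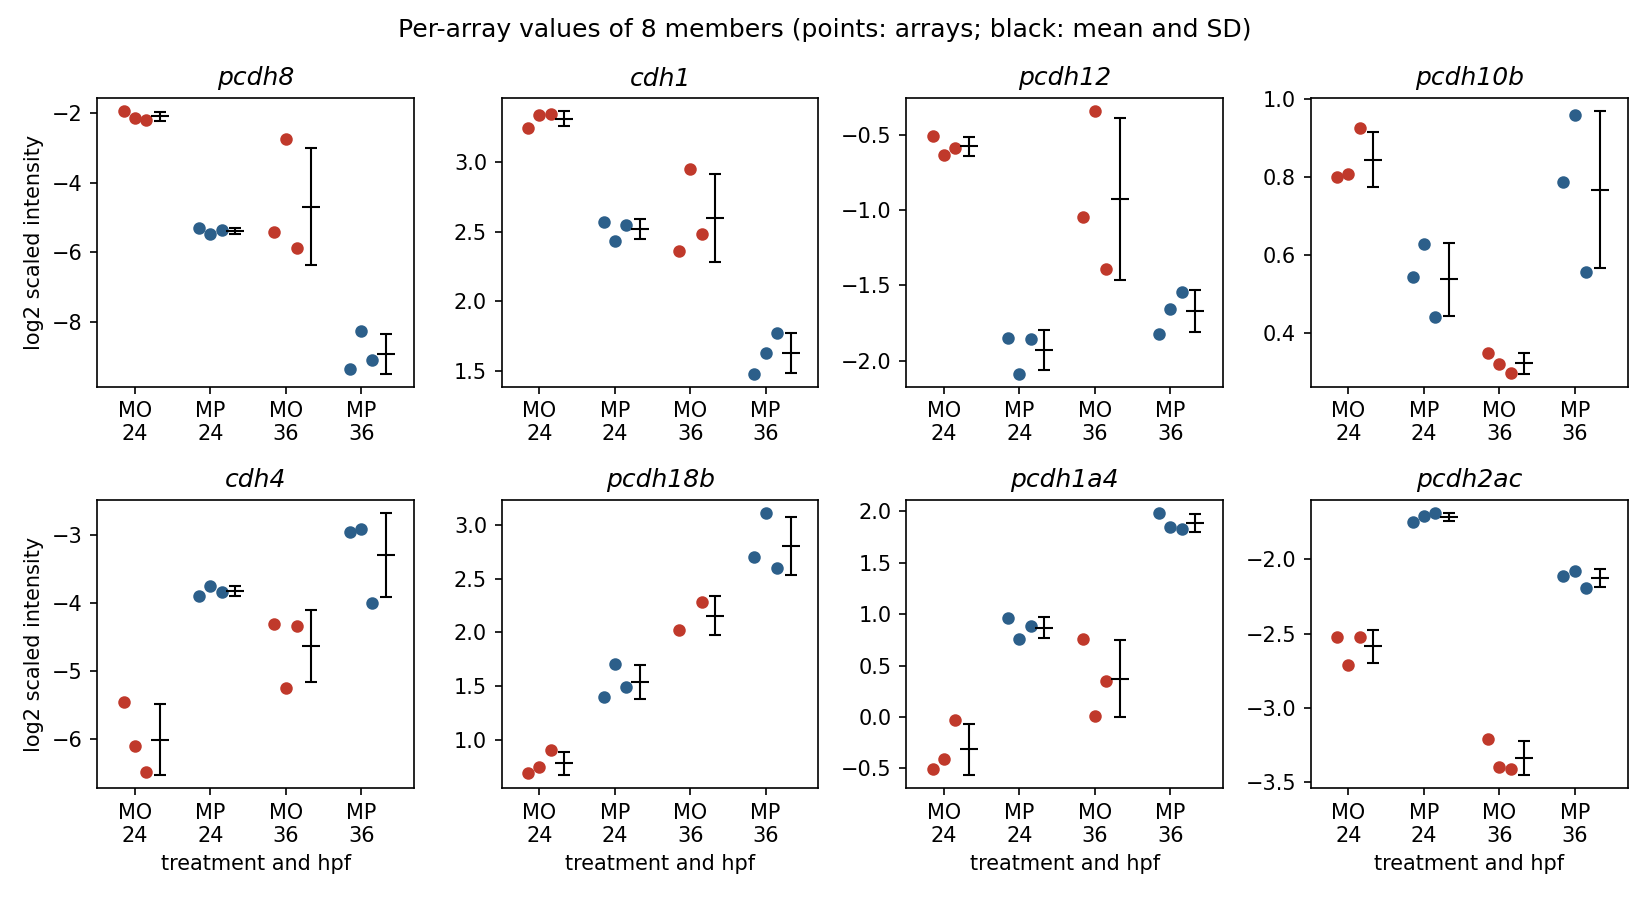
Log2 scaled intensity (y axis) of 8 members on each array (points; MO red, MP blue) by treatment and hpf, with the mean and SD of each group in black and an own y scale in each panel. The 8 members were picked for display. The MO and MP points do not overlap at either time in any of the 8 panels, and pcdh10b is the panel in which MO lies above MP at 24 hpf and below it at 36 hpf. Of all members tested, 17 of 25 were apart at 24 hpf and 14 of 23 at 36 hpf, against 59.8% and 29.3% of all genes. At 36 hpf pcdh18b has 2 MO points, and the MP points of pcdh8 are near background.

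At 36 hpf fewer differences passed. Of 23 members tested 3 changed in MO embryos, cdh1 higher and pcdh1a4 and pcdh2ac lower, which is 13.0% of those tested against 6.37% of all 9888 genes (1.93% higher and 4.44% lower). By separation 14 of the 23 members had MO and MP arrays that did not overlap, 4 higher and 10 lower, against 29.3% of all genes (14.1% higher and 15.1% lower). The 4 higher were cdh1, cdh2, cdh17 and pcdh12, and the 10 lower were 6 clustered protocadherins, cdh4, cdh10a, pcdh10b and pcdh18b. Of the lower, cdh4, pcdh1g1 and pcdh1g9 were tested only through MP, the higher group. Only 2 MO arrays of each were well above background. Among the 18 members well above background on all arrays of 36 hpf, 3 passed, beside 488 of 9193 such genes. The 3 calls rested on few arrays. None of them passed without MO replicate 3 or without any single MP replicate (adjusted p = 0.104 to 0.162 for cdh1, 0.0614 to 0.0786 for pcdh1a4 and 0.106 to 0.120 for pcdh2ac), all 3 passed without MO replicate 1, and 4 members passed without the dim MO replicate 2, the fourth being pcdh1gb9 at -1.17 (adjusted p = 0.0214). Over all genes, 1120 of 9870 passed without MO replicate 2, and 638 of 9877 without MO replicate 1. Few genes of any kind passed in the fits that lost the calls. The count was 76 of 9884 without MO replicate 3, and 54 of 9894, 19 of 10171 and 94 of 9903 without MP replicates 1, 2 and 3. With slide as a block no member passed, beside 152 of 9888 genes (adjusted p = 0.0503 for pcdh1a4, 0.112 for cdh1 and 0.114 for pcdh2ac).

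cdh1 was at 2.36, 2.95 and 2.48 in the MO pools of 36 hpf, against 1.48, 1.63 and 1.77 in the MP pools. The change was 0.97 ± 0.21 (SE, adjusted p = 0.0391), and within the slides it ranged from 0.71 to 1.47. Scaling to positive control spots turned it to -0.21 (adjusted p = 0.781), a scaling that moved the median of all genes by -1.18 at this time. The epidermal markers were less uniform at 36 hpf, with 1 of 7 lower and none higher past the test, a median of 0.65, and a summed intensity of 751 to 1744 in MO against 576 to 738 in MP pools.

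All 7 clustered protocadherins tested again had a negative change at 36 hpf, with a median of -0.99 and a range of -1.52 to -0.42, beside 0.03 over all genes. The MO and MP arrays did not overlap for 6 of the 7, pcdh1g18 being the exception. pcdh1g1 and pcdh1g9 entered only through MP, where they were higher, so the filter itself favoured a negative change for them. pcdh1a4 was at 0.76, 0.01 and 0.35 in MO pools and at 1.99, 1.84 and 1.83 in MP pools, a change of -1.52 ± 0.23 (SE, adjusted p = 0.0148) that ranged from -1.98 to -1.09 within slides, while its other probes gave -0.42 and -1.97. pcdh2ac was at -3.21, -3.40 and -3.41 in MO pools and at -2.11, -2.08 and -2.20 in MP pools. It had the tightest groups of the class, with a change of -1.21 ± 0.24 (SE, adjusted p = 0.0295) that ranged from -1.29 to -1.13 within slides and was -0.61 (adjusted p = 0.218) with the offset correction. pcdh1gb9 was at -0.79, -0.60 and -1.18 in MO pools and at 0.50, 0.19 and -0.14 in MP pools, with a change of -1.04 ± 0.26 (SE, adjusted p = 0.0533).

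The class median at 36 hpf moved with the array and the correction. It was -1.09, -1.05 and -0.38 within the 3 slides, the last being the slide of the dim MO replicate 2, and -0.34 with the offset background correction, under which pcdh1g1 and pcdh1g9 turned to 0.30 and 0.12. Scaled to positive control spots it was -2.17. Neuronal markers were again lower in MO pools, 8 of 10 past the test and none higher (median -1.16, summed intensity 27.6 to 35.2 in MO against 55.4 to 68.6 in MP pools).

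Outside the clusters no protocadherin passed the test at 36 hpf, and 8 of 9 had a negative change (median -0.29). That count of signs was not stable, as 5 of 9 were negative with the offset correction (median -0.02), 4 of 9 with the median over probes (median 0.11), and 4 of the 8 measured on the slide of MO replicate 2 (median 0.11). The count also holds pcdh15b and pcdh18a, tested only through MP, the higher group. They were well above background on only 1 and 2 MO arrays. pcdh12 was at -1.04, -0.34 and -1.39 in MO pools and at -1.82, -1.66 and -1.54 in MP pools, above them in each pool (0.75 ± 0.30, SE, adjusted p = 0.207). pcdh18b was at 2.02 and 2.28 in the MO pools with a usable spot and at 2.70, 3.11 and 2.60 in MP pools (-0.65 ± 0.24, SE, adjusted p = 0.175), the spot of MO replicate 2 having been marked as an outlier and dropped from the fit. cdh4 was at -4.32, -5.25 and -4.35 in MO pools and at -2.96, -2.92 and -4.01 in MP pools (-1.34 ± 0.42, SE, adjusted p = 0.109). The groups of these 3 genes did not overlap, yet none of the differences passed.

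pcdh8 could not be tested at 36 hpf, because no group had it well above background on all 3 arrays. It was at -5.43, -2.75 and -5.89 in MO pools, of which replicates 1 and 2 were well above background, and at -9.38, -8.27 and -9.11 in MP pools, of which none was. Counted against the lowest signal that rose above background on each MP array, MO was 4.34-fold higher, and without MO replicate 2 it was 2.22-fold higher. MO replicate 3, not well above background, entered at its own signal, so neither fold is a strict lower bound. Replicate 2 stood well above the other MO pools, and the summed paraxial mesoderm markers spread likewise, from 6.49 to 28.2 in MO against 3.15 to 4.14 in MP pools, with 4 of 10 markers higher past the test and none lower (median 2.68).

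Whether the effect of MO differed between the times was tested as an interaction over all 12 arrays. None of the 25 members passed, against 1.55% of 10391 genes, and the members' adjusted p reached from 0.0780 to 0.937. The lowest adjusted p was that of pcdh10b, whose 3 MO pools lay above the 3 MP pools at 24 hpf and below them at 36 hpf. Its level was 0.80, 0.81 and 0.93 in MO against 0.54, 0.63 and 0.44 in MP pools of 24 hpf, and 0.35, 0.32 and 0.30 in MO against 0.79, 0.96 and 0.56 in MP pools of 36 hpf. The interaction was -0.75 ± 0.19 (SE, adjusted p = 0.0780). The call depended on single arrays of 36 hpf, since pcdh10b passed without MP replicate 3 (adjusted p = 0.0459), and pcdh10a, pcdh10b, pcdh12 and pcdh1b passed without MO replicate 2 (adjusted p = 0.0404, 0.0178, 0.0173 and 0.00321). Over all genes, 165 of 10387 passed in the first of these fits and 1619 of 10356 in the second. The second probe of pcdh10a changed by 0.40 at 24 and 0.51 at 36 hpf. That of pcdh10b changed by 0.60 and -0.29, and that of pcdh12 by 1.60 and 0.70.

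The course in time is given for each treatment from its own arrays. Both courses use arrays that also enter the comparisons of MO with MP, and slide and scan session changed with time. In MP embryos 8 of 25 members differed between 36 and 24 hpf, 5 higher and 3 lower at 36 hpf, which is 32% against 30.5% of all 10302 genes (14.4% higher and 16.1% lower). In MO embryos 4 of 25 differed, 2 higher and 2 lower, which is 16% against 11.8% of 10212 genes (6.04% higher and 5.73% lower). By separation of the times 12 of 25 members stood apart in MP embryos, 8 higher and 4 lower, against 48.4% of all genes (21% and 27.4%), and 12 of 25 in MO embryos, 5 higher and 7 lower, against 39.2% (17.6% and 21.6%). Without MO replicate 2 of 36 hpf the count in MO embryos was 14, beside 5059 of 10187 genes. Without replicate 1 of that time it was 1, beside 947 of 10189 genes. Without replicate 3 of that time it was 0, beside 167 of 10187 genes. Without MO replicate 1, 2 or 3 of 24 hpf it was also 0, beside 36 of 10232, 22 of 10257 and 64 of 10276 genes.

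In MP embryos the higher members were pcdh18b by 1.27 ± 0.16 (SE, adjusted p = 9.09e-04), pcdh15b by 1.11 ± 0.35 (SE, adjusted p = 0.0411), pcdh1a4 by 1.02 ± 0.12 (SE, adjusted p = 6.25e-04), pcdh1b by 0.85 ± 0.23 (SE, adjusted p = 0.0224) and pcdh1gb9 by 0.77 ± 0.18 (SE, adjusted p = 0.0117). Not all were secure. The rise of pcdh1a4 turned to -0.09 in the median over its probes, which follows its probe of middle brightness. pcdh15b kept its call in 1 of the 6 fits that left out an array, the one without MP replicate 2 of 36 hpf. That of pcdh1b was kept without MP replicate 1 or 2 of 36 hpf only, and that of pcdh1gb9 was lost without MP replicate 3 of 24 hpf (adjusted p = 0.0510). The fit without MP replicate 3 of 24 hpf left 5 of the 25 members with a call, beside 1788 of 10323 genes. All 5 rises lost their call when arrays were scaled to positive control spots, which moved the median of all genes by -0.52 in this comparison. Of the 10 neuronal markers 8 were higher and none lower at 36 hpf (median 1.04, summed intensity 55.4 to 68.6 at 36 hpf against 29.9 to 30.6 at 24 hpf), and their part in the rises of pcdh1a4 and pcdh1gb9 was not tested.

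The 3 lower members were pcdh8, cdh23 and cdh1. pcdh8 stayed near background in the MP pools of 36 hpf and averaged -5.38 in those of 24 hpf, a fall by a factor of at least 2.68. cdh23, likewise near background at 36 hpf, fell by a factor of at least 2.47. Both genes were tested only because the MP pools of 24 hpf were well above background. Their adjusted p (2.81e-04 for pcdh8 and 0.00730 for cdh23) come from fits to the 36 hpf values near background, not from these bounds. Under the offset correction neither change passed. The later floor lay above every MP value of both genes, so under it no change could appear. cdh1 fell by -0.89 ± 0.12 (SE, adjusted p = 0.00122), with the 3 MP pools of 36 hpf at 1.63 ± 0.15 and those of 24 hpf at 2.52 ± 0.07 (SD, n = 3 each), and it was at -1.41 (adjusted p = 0.0685) when scaled to positive control spots. Paraxial mesoderm markers moved beside pcdh8, with 8 of 10 lower and 1 higher at 36 hpf (median -1.76, summed intensity 3.15 to 4.14 at 36 hpf against 5.12 to 7.09 at 24 hpf). Of the 7 epidermal markers 4 were lower and 1 higher beside cdh1 (median -0.57, summed intensity 576 to 738 at 36 hpf against 640 to 763 at 24 hpf). The part of either tissue was not tested.

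In MO embryos cdh1 was lower at 36 than at 24 hpf by -0.71 ± 0.18 (SE, adjusted p = 0.0493), pcdh2ac by -0.75 ± 0.19 (SE, adjusted p = 0.0493), and pcdh18b and pcdh1g18 were higher by 1.37 ± 0.18 (SE, adjusted p = 0.0145) and 1.08 ± 0.24 (SE, adjusted p = 0.0349). The calls of cdh1 and pcdh2ac lay just under the threshold, and none of the 4 calls was secure. In the fits that left out an array the call was kept in 1 of 6 for cdh1 and for pcdh2ac, 2 of 6 for pcdh1g18 and 1 of 4 for pcdh18b. That of pcdh2ac was also lost, among other settings, when arrays were scaled to the 75th percentile and with quantile normalization. Neuronal markers were higher in 6 of 10 cases and lower in none (median 1.16), and of the 7 epidermal markers 1 was higher and none lower (median -0.01), with their part in these changes not tested. Scaled to positive control spots, which moved the median of all genes by -1.61, the rises of pcdh18b and pcdh1g18 turned to -0.12 and -0.53. Side by side, the changes of pcdh8 from 24 to 36 hpf were -2.60 ± 0.76 in MO (SE, adjusted p = 0.0673) and -3.53 ± 0.35 in MP embryos as fitted. The MP change rests on 36 hpf values near background. The MO change does so in part, as MO replicate 3 of 36 hpf was not well above background.

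**Figure D4:**
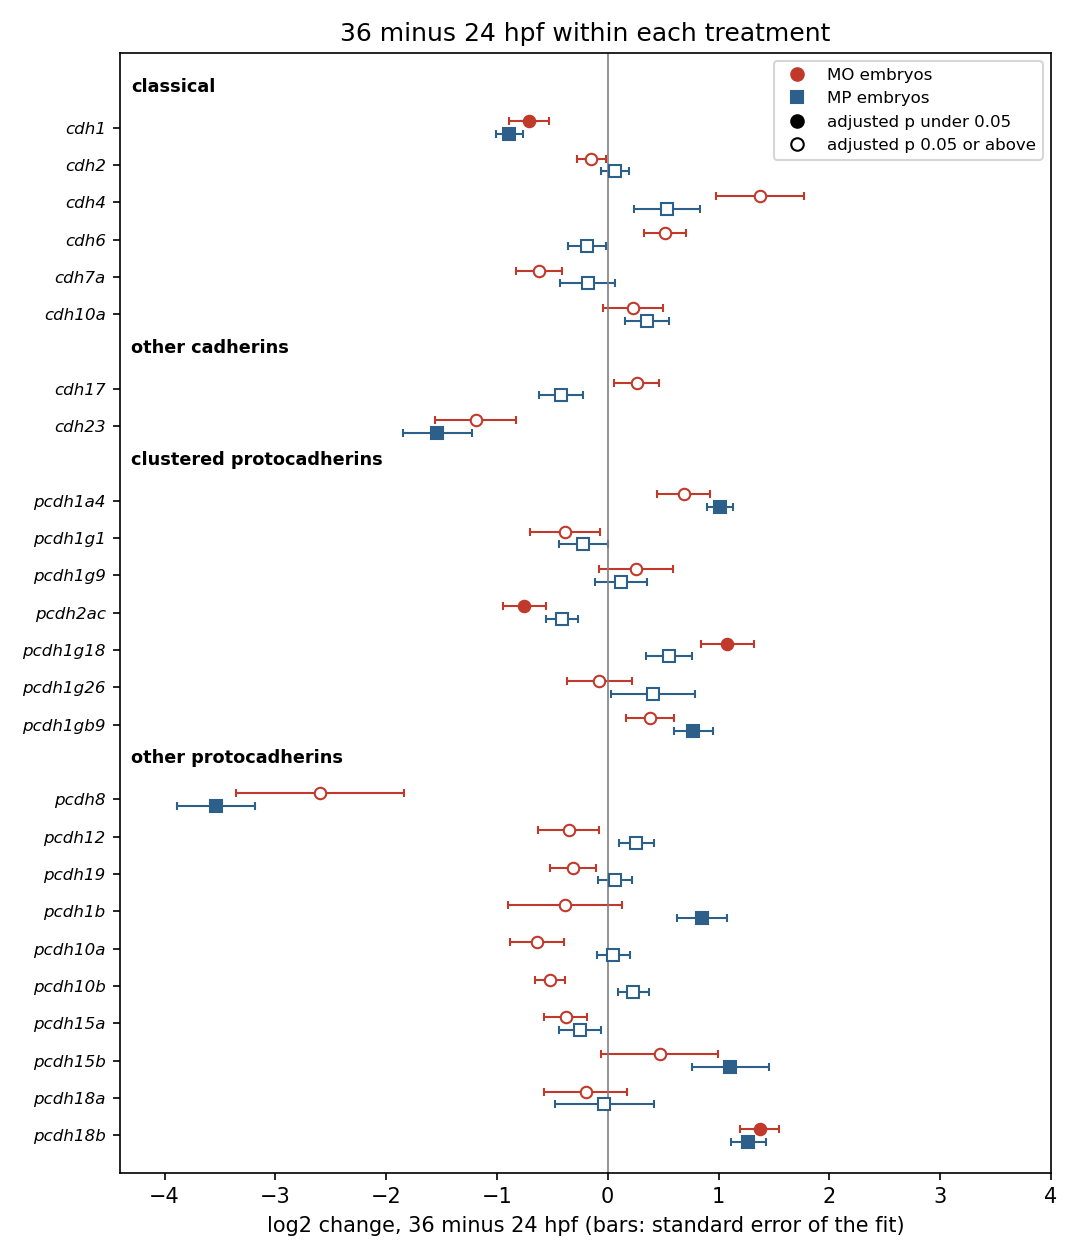
Log2 change between 36 and 24 hpf (x axis, log2, positive where 36 hpf was higher; bars, SE) in MO (circles) and MP embryos (squares) for each tested member, filled where the adjusted p was under 0.05. pcdh18b is filled to the right and cdh1 to the left in both treatments. The fall drawn for pcdh8 in MP embryos rests on 36 hpf values near background, for which only a factor of at least 2.68 is known.

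Partners of these proteins are given by counts, beside the 48.3% of all genes that changed at 24 hpf. Of 13 catenins and adherens junction partners tested at 24 hpf 1 was higher and 1 lower in MO embryos, with a median change of 0.01. pkp2, a plakophilin of desmosomes, rose by 0.64 ± 0.15 (SE, adjusted p = 0.00671), and vcla, a vinculin gene, fell by -1.47 ± 0.32 (SE, adjusted p = 0.00482). At 36 hpf they were at 0.49 and -0.47, and none of the 13 passed. Among 10 genes for regulators and signalling partners of clustered protocadherins, which include cohesin subunits and ctcf, only ptk2ab, a focal adhesion kinase gene, changed at 24 hpf (0.30 ± 0.08, SE, adjusted p = 0.0105), and none of 9 did at 36 hpf. The 24 hpf call of ptk2ab was lost when arrays were scaled to positive control spots and in the fit of all 12 arrays.

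Other adhesion families gave a mixed picture. In the wider cadherin superfamily 7 genes were tested at 24 hpf, of which fat3a, a giant atypical cadherin, rose by 3.72 ± 0.50 (SE, adjusted p = 4.14e-04) and clstn1, a calsyntenin of neurons, fell by -0.91 ± 0.13 (SE, adjusted p = 4.97e-04). A floor set after scaling left fat3a at 1.47 (adjusted p = 0.122). At 36 hpf none of the 6 genes tested passed, and fat3a was not among them. Of 6 nectins and nectin-like molecules tested at 24 hpf nectin1b rose by 0.98 ± 0.18 (SE, adjusted p = 0.00204), and the nectin-like adhesion genes cadm2a and cadm4 fell by -1.41 ± 0.14 (SE, adjusted p = 9.14e-05) and -0.52 ± 0.12 (SE, adjusted p = 0.00639), the fall of cadm4 turning to 0.03 in the median over its probes. At 36 hpf cadm2a and cadm3 were lower, by -1.27 ± 0.22 (SE, adjusted p = 0.0239) and -1.14 ± 0.24 (SE, adjusted p = 0.0354), calls that were lost with slide as a block (adjusted p = 0.0762 and 0.0893).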

How the data were processed

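RNA from 12 pools of 25 embryos was hybridised to Agilent zebrafish V2 1-colour arrays, and the authors deposited each array's Agilent Feature Extraction 10.5.1.1 output. Per the file headers the deposited values are spot intensities after background subtraction, with flags for signal well above background, saturation and outliers, which are coded as other values. The authors' table of processed intensities, scaled to positive control genes by the study's methods, served as an alternative, in which the columns of MP replicates 2 and 3 of 24 hpf each follow the other's array.

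Outlier spots were left out, intensities under 0.05 were raised to it (none was that low), intensities were scaled to the array's median over the 19114 probes that exceeded 50 on all 12 arrays, and log2 was taken. Of 43603 probes 16770 matched an accession of RefSeq (GRCz12tu), 15772 of them from 10915 named genes. Genes well above background throughout some group of 3 arrays were tested with limma 3.58.1 (R 4.3.3; lmFit, eBayes with trend), two-sided, within a time point or treatment, and Benjamini-Hochberg adjustment over all genes tested at 0.05. Alternatives were other scalings, background corrections, floors, probe choices, fits and blocks, and leaving out each array. The floor set after scaling raised scaled intensities under 0.05 to 0.05, which clips dim genes. The median over probes was the median of a gene's probe levels on each array. Scripts were tested on simulated data. Figures used matplotlib 3.10.9. For a group in which a probe stayed near background, that is, without the well-above-background flag on each of its arrays, a fold is a lower bound, taken against the mean over arrays of the higher of the probe's own signal and the lowest flagged signal. The number of arrays limits the precision.

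Members, lists and tests were chosen with earlier results of these data known. Named with values were cdh1, cdh2, cdh4, pcdh8, pcdh19, pcdh1a4, pcdh1g18 and pcdh2ac, members passing at 36 hpf, the 12 largest changes passing at 24 hpf, and the 3 largest rises and falls in MP. The others were named after their values were seen. cdh11, pcdh17 and pcdh1gb2 matched no accession and were not analysed here. From the lists, up to 3 genes with the smallest adjusted p were named. cdh5 and myom1a were named outside this rule, myom1a because the study measured it by qPCR. cadm3 and otofa, pou4f3 and lhfpl5b were added after their values were seen.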

Additional observations from a re-analysis of the deposited data

How the results depend on the processing

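Across all alternatives, including those that left out an array, the 25 tested members and the 9 genes named from the partner and adhesion lists at 24 hpf kept their direction and side of the threshold in 657 cases, lost the call in 36, gained it in 7 and turned in direction in 14. The same counts were 524, 41, 22 and 26 at 36 hpf for those tested there, and 22, 0, 3 and 0 for the interaction of pcdh10b. The time comparisons were followed only for members that had passed, of which the 8 in MP kept the call in 128 cases, lost it in 29 and turned in 1, and the 4 in MO kept it in 43, lost it in 33 and turned in 2. Members that gained a call over time are in the counts of members. The causes were not tested except where the setting itself removes samples. Signal over background limits cdh18a and pcdh2g12 at both times and cdh23 and pcdh8 at 36 hpf, which could not be tested.

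At 24 hpf the count of changed genes was 2212 in 1 fit of all 12 arrays, against 5001. At 36 hpf, against 630 genes and 3 members, scaling to positive control spots gave 1314 genes (13 higher and 1301 lower) and 9 members, the fit of all 12 arrays 1883 and 10, slide as a block 152 and 0, the methods' t-test 2 and 0, a floor after scaling 251 genes, and normexp background correction 1 member. The interaction had 384 genes with positive control scaling, 105 with normexp, 274 with the later floor (and 1 member, pcdh10b), 31 with slide and 79 with scan session as a block, against 161 genes and 0 members. For time in MP, against 3141 genes and 8 members, positive control scaling gave 595 and 2, scan session as a random block 6356 and 15, the methods' t-test 1847 genes, and normexp 5 members. For time in MO, against 1202 genes and 4 members, positive control scaling gave 9015 genes (42 higher and 8973 lower) and 22 members, the fit of all 12 arrays 2564 and 10, scan session as a random block 5694 and 15, the methods' t-test 562 genes, and keeping outlier spots 2 members.

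Leaving out 1 array gave 4166 to 5072 changed genes and 14 to 19 members at 24 hpf, 19 to 1120 genes and 0 to 4 members at 36 hpf, 62 to 1619 genes and 0 to 4 members in the interaction, 1779 to 3117 genes and 5 to 8 members for time in MP, and 22 to 5059 genes and 0 to 14 members for time in MO. Changes that turned among these fits ranged at 24 hpf from -0.17 to 0.082 for cdh17, -0.26 to 0.015 for pcdh15a, -0.33 to 0.037 for pcdh15b and -0.77 to 0.13 for pcdh18a, and at 36 hpf from -0.054 to 0.37 for cdh7a, -0.60 to 0.033 for pcdh18a, -0.28 to 0.078 for pcdh19 and -0.86 to 0.087 for pcdh1b.

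At 24 hpf normexp turned cdh17 to 0.017, cdh23 to 0.10 and pcdh15b to 0.14, and the median over probes turned cadm4 to 0.027 and cdh6 to 0.0096. At 36 hpf positive control scaling turned cdh1 to -0.21, cdh17 to -0.50, cdh2 to -0.95, cdh6 to -0.64, cdh7a to -1.08, pcdh12 to -0.43, nectin1b to -0.84, pkp2 to -0.69 and ptk2ab to -0.76, while normexp turned pcdh15b to 0.41, pcdh18a to 0.42, pcdh1b to 0.14, pcdh1g1 to 0.30 and pcdh1g9 to 0.12, and the median over probes turned pcdh10a to 0.11, pcdh15a to 0.17, pcdh15b to 0.17 and pcdh19 to 0.11. For time, the median over probes turned pcdh1a4 to -0.094 in MP, and positive control scaling turned pcdh18b to -0.12 and pcdh1g18 to -0.53 in MO. Positive control scaling moved the median of all genes by -1.18 at 36 hpf and by -0.09 at 24 hpf.

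The labels call pools of a group separate breedings without saying that same-numbered pools share one, and the deviations of same-numbered pools did not correlate throughout (r across genes -0.17, -0.052 and -0.017 at 24 hpf, 0.15, 0.084 and -0.26 at 36 hpf), so the replicate number was not used to pair samples. With it as a replicate block, 226 genes and 1 member (pcdh1a4) passed at 36 hpf, 180 genes and 0 members for time in MO, and pcdh10a (adjusted p = 0.0547) and pcdh10b (adjusted p = 0.0546) lost their calls at 24 hpf. Slide could not be fitted for the time comparisons, nor scan session within 36 hpf, which was 1 session, and pcdh18b had no value at 36 hpf without MO replicate 1 or 3.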
